A study of Bos taurus with 6 samples.

Results

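Most genes described here encode the centromere and kinetochore, the protein assembly that holds a chromosome to the mitotic spindle. CENPJ and CENPV, which also carry a CENP name, were put in a group of their own. The genes were taken by name from a list of 37 genes. All 37 were found in the expression tables, on 38 of the 32183 listed gene rows, because CENPW has 2 rows. RNA was sequenced from rumen epithelial primary cells (REPC), cells grown in culture from the rumen lining of a single 2-week-old Holstein bull calf that had been fed milk replacer only. The samples fall into 2 groups, 3 cultures exposed to 5 mM butyrate in the medium for 24 h and 3 control cultures without added butyrate, numbered 1 to 3 within each group. Butyrate is a short-chain fatty acid made by rumen microbes and an inhibitor of histone deacetylases. All cultures descend from 1 animal, so the replicate error covers differences between cultures and not between animals. The comparison asks how the transcripts of the chromosome attachment machinery stood in REPC after butyrate.

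The kinetochore is built in layers on chromatin that carries CENP-A, a histone H3 variant which marks the centromere. A chaperone and its helpers load new CENP-A after each division, a network of constitutive proteins reads the CENP-A nucleosome, and an outer layer assembles on it in mitosis and binds spindle microtubules. The spindle checkpoint works from the same outer layer. Many of these genes are transcribed mainly late in the cell cycle, so their RNA in a culture depends on how many cells are dividing as well as on how much each cell makes, and these cannot be told apart in RNA from whole cultures.

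Expression is given as FPKM, the number of fragments scaled by transcript length and by the mapped fragments of the library, so levels can be compared between genes. The total FPKM per culture ranged from 678035 to 681912 for the control group and from 619401 to 629037 for the butyrate group. Cultures of one group correlated across rows at 0.995 and cultures of different groups at 0.963 to 0.966. The tables give no read counts, so the depth behind a value is known only from the confidence bounds that the authors deposited with each FPKM. In the epithelial check, 12 of 12 marker genes were detected and KRT8 stood at 1379.8 ± 61.4 (SD, n = 3) in control and 1971 ± 35.1 (SD, n = 3) after butyrate, with KRT19 at 492 ± 11.5 and 1953 ± 31.2 (SD, n = 3). Of the 12, 9 rose, 1 fell and 2 were not called, with 7 to 9 that rose and 0 or 1 that fell in the alternative fits. Of all tested rows 32.5% rose and 25.9% fell, by the call defined in the next paragraph. These shares also stand beside the counts of the marker lists below. CDH1 and DSP, the 2 not called, were at 98.2% and 99.3% of their control means. The summed FPKM of the 12 went from between 2465 and 2575 to between 5134 and 5223. Some markers of other cell types were present too. The 10 fibroblast markers summed to 5525 to 5798 in control and to 8511 to 9225 after butyrate, led by VIM and FN1, and the 5 smooth muscle markers, led by TAGLN and ACTA2, to between 6468 and 6796 in control and between 2849 and 3456 after butyrate. Levels within both lists were uneven. Fibroblast control means ran from 0.0203 for PDGFRB, 0.149 for LUM and 0.306 for PDGFRA to 2464 for VIM. Smooth muscle control means ran from 0.367 for DES and 0.662 for MYH11 to 3074 for TAGLN. In the fibroblast list 9 genes, all but PDGFRB, passed the filter on low values. All 9 rose, with 7 to 9 in the alternative fits. In the smooth muscle list 4 of 5 fell and 1, DES, rose. The 5 immune markers summed to between 5.12 and 7.15 in control and between 7.23 and 9.38 after butyrate, mainly from CD14 and CD68, while PTPRC and LYZ were listed at 0 in all 6 cultures, and 1 of the 2 that could be tested rose. The 4 endothelial markers, led by PECAM1 and VWF, had a summed FPKM of 1.95 to 2.07 in the control group and 6.48 to 8.43 in the butyrate group, CDH5 was listed at 0 in all cultures, and the 2 that could be tested rose. The part of these marker differences in the results below was not tested, and a change in the mix of cells and a change of RNA within cells cannot be told apart.

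The centromere and kinetochore transcripts were low in every butyrate culture. The summed FPKM of the 38 rows was 647, 603 and 667 for control replicates 1 to 3, against 126, 130.2 and 141 for butyrate replicates 1 to 3. With CENPW counted once at its longer row, the sums lay between 547 and 589 in control and between 124 and 135 after butyrate. The median row stood at 9.87, 10.3 and 11.4 in the control cultures and at 0.991, 0.888 and 1.10 in the butyrate cultures. Genes were tested with limma on log2(FPKM + 0.1) over the 15813 rows whose mean FPKM reached 0.1, a scale on which the change of low genes is understated. All 38 rows passed this filter, and each would also have passed it on its butyrate mean alone. A gene was called where the Benjamini-Hochberg adjusted p over all tested rows was under 0.05. By this call 36 of the 38 rows fell, beside 25.9% of all tested rows, 1 rose, beside 32.5%, and 1 was not called. In 37 rows the 3 butyrate values lay below the 3 control values, beside 28.9% of all tested rows. The median log2 fold change was -3.20 over the members and 0.10 over all tested rows. Under the stricter definition of a differentially expressed gene (DEG), which asks for a log2 fold change beyond 2 together with a Bonferroni-corrected p below 0.05, 21 of the 38 rows were downregulated, beside 1.51% of all tested rows, and 0 were upregulated.

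Of the 38 rows, 20 kept less than 10% of their control mean, 9 kept between 10% and 20%, 4 kept between 20% and 50%, and 5 kept more than 50%. A mean FPKM under 1 was seen in 20 rows after butyrate and in 0 rows in control. In 34 rows the highest upper confidence bound of any butyrate culture lay under the lowest lower bound of any control culture, the exceptions being CENPB, CENPC, MIS12 and CENPV. The bounds of the other tested rows were not compared, so this count has no share of all tested rows beside it. The number of downregulated DEGs depended on the settings, and was 2 without the filter on low values, 10 without the mean-variance trend, 11 without control replicate 1, 13 without control replicate 2 and 12 without control replicate 3. The number of rows that fell by the Benjamini-Hochberg call was between 34 and 37 in the alternative fits, the 34 being out of 36 rows whose mean FPKM reached 1. The members lie on 22 chromosomes, and 10 of the 38 rows share part of their locus with another gene row.

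**Figure D1:**
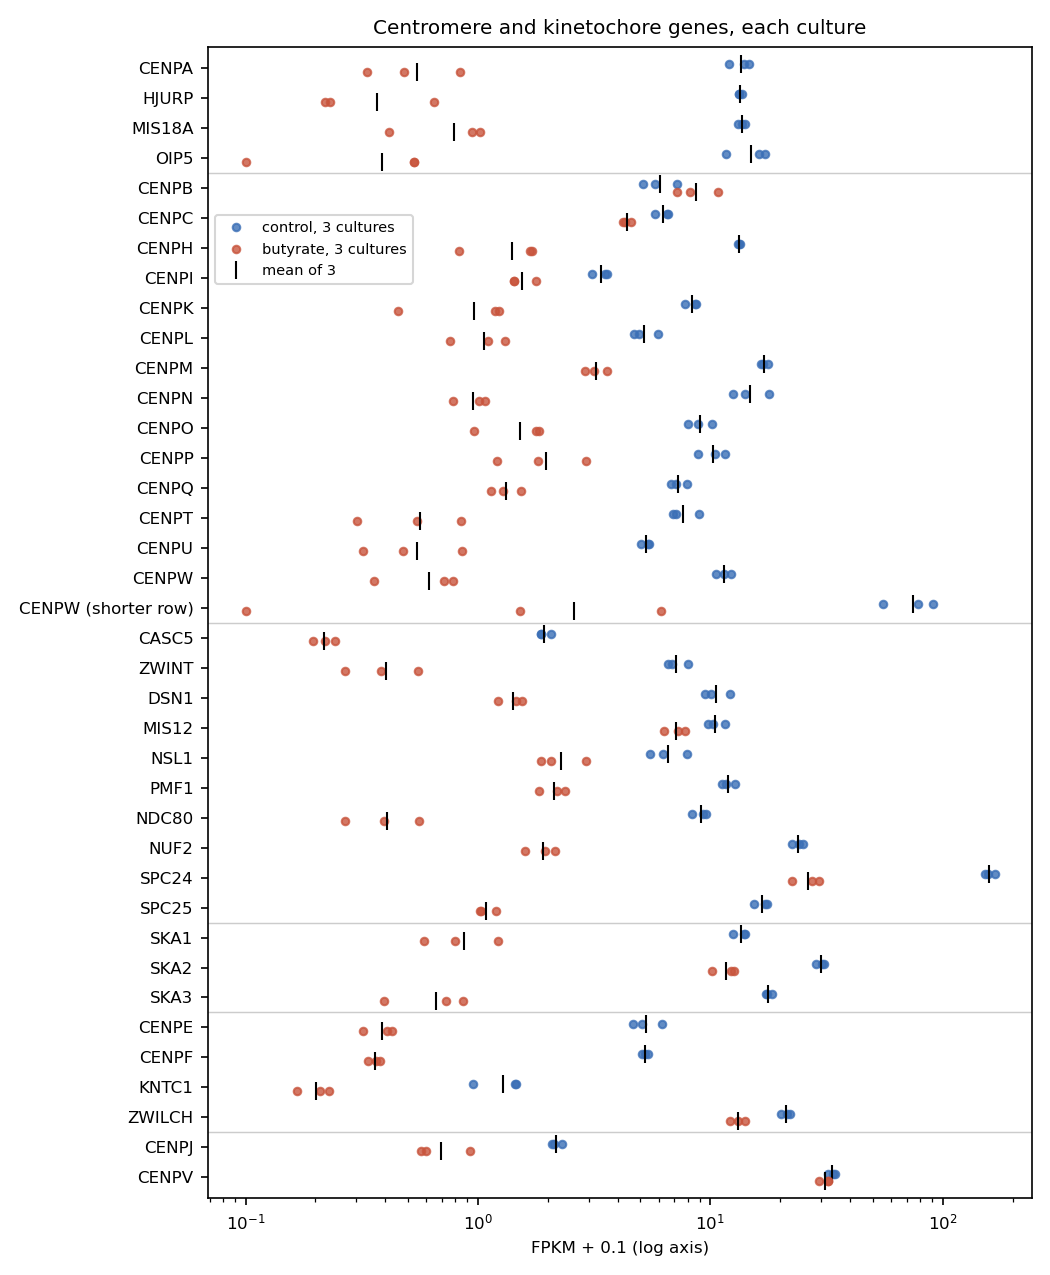
FPKM + 0.1 on a log axis for the 38 rows, with 1 point for each control culture (blue) and butyrate culture (red) and a bar at each mean of 3 cultures; grey lines separate the groups of proteins. In 37 of the 38 rows the 3 butyrate points lie to the left of the 3 control points, and only the points of CENPB overlap.

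The lowest median log2 fold change of the 6 groups of proteins, -5.05, was found in the module that marks the centromere. CENP-A itself, its chaperone and the complex that prepares chromatin for it fell to a few percent of their control level, and all 4 rows were called. CENPA, on chromosome 11 from 72779986 to 72788140, had an FPKM of 13.8, 11.9 and 14.6 across control replicates 1 to 3, against 0.234, 0.380 and 0.734 across butyrate replicates 1 to 3. Positions here and below are on the UMD3.1 build. The groups did not overlap, and 3.35% of the control mean remained (log2 fold change -4.72, standard error, SE, 0.31; limma, Benjamini-Hochberg adjusted p = 3.28e-06). HJURP, the chaperone that deposits CENP-A, lies on chromosome 3 from 114122294 to 114135094 and stood at 13.2, 13.2 and 13.6 across control replicates 1 to 3, against 0.549, 0.119 and 0.131 across butyrate replicates 1 to 3. Its control values were among the most even of the genes described, while butyrate replicate 1 was above the other two butyrate cultures. It kept 2.0% of its control mean, with a log2 fold change of -5.39 (SE 0.39; limma, Benjamini-Hochberg adjusted p = 5.68e-06). MIS18A and OIP5 are subunits of the MIS18 complex, which primes the centromere for new CENP-A. MIS18A, on chromosome 1 from 2490259 to 2502546, went from 13.6, 13.1 and 14.0 in control to 0.313, 0.917 and 0.839 after butyrate. OIP5, on chromosome 10 from 36897174 to 36905748, went from 11.6, 17.0 and 16.1 to 0.430, 0 and 0.431, and was listed at 0 in butyrate replicate 2. OIP5 had the lowest share left of the 38 rows, 1.92%, and a log2 fold change of -5.61. Its spread was wide, with a standard error of 0.59, so that it was called by the Benjamini-Hochberg rule but was not a DEG (limma, Bonferroni-adjusted p = 0.144). The other three genes of this module were DEGs.

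The proteins that sit on centromeric chromatin through the whole cell cycle changed unevenly. Of their 15 rows, 14 fell, 1 rose, and 6 were DEGs, with a median log2 fold change of -2.62. CENPB and CENPC, which bind centromeric DNA and nucleosomes, had the smallest changes of this group. CENPC ties the CENP-A nucleosome to the outer kinetochore. It lies on chromosome 6 from 84904995 to 84998871 and had an FPKM of 6.48, 5.68 and 6.38 across control replicates 1 to 3, against 4.21, 4.45 and 4.11 across butyrate replicates 1 to 3. The butyrate values were below all control values, but 68.9% of the control mean remained, with a log2 fold change of -0.53 (SE 0.12; limma, Benjamini-Hochberg adjusted p = 0.00447). CENPB binds a short motif in centromeric satellite repeats and lies on chromosome 13 from 51874894 to 51877511. It stood at 7.12, 5.03 and 5.69 across control replicates 1 to 3, against 10.7, 7.05 and 8.08 across butyrate replicates 1 to 3, so that butyrate replicate 2 was below control replicate 1 and the groups overlapped. Its log2 fold change of 0.52, with a standard error of 0.18, was the only rise called among the 38 rows (limma, Benjamini-Hochberg adjusted p = 0.0371). The call of CENPB was lost when the medians of the cultures were set equal (adjusted p = 0.0807), by quantile normalization (adjusted p = 0.0695), without the trend, without the filter, and in limma fits without butyrate replicate 1 or 3 or control replicate 2 or 3.

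CENPN and CENPL bind the CENP-A nucleosome as a pair, and both fell. CENPN, on chromosome 18 from 7734175 to 7753461, fell from 14.7 ± 2.70 (SD, n = 3) to 0.855 ± 0.156 (SD, n = 3), which left 5.81%. CENPL, on chromosome 16 from 56636316 to 56660603, fell from 5.10 ± 0.681 (SD, n = 3) to 0.958 ± 0.275 (SD, n = 3), which left 18.8%. The log2 fold changes were -3.95 for CENPN, with a 95% interval from -4.39 to -3.52, and -2.33 for CENPL, with an interval from -2.86 to -1.79, and these intervals did not overlap. CENPN was a DEG and CENPL was not.

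CENPH, CENPI, CENPK and CENPM form a complex that bridges CENP-C and the CENP-T branch. CENPH, on chromosome 20 from 10407093 to 10425913, had the least variable control values of the 38 rows, at 13.1, 13.3 and 13.2, and stood at 0.729, 1.61 and 1.57 after butyrate. CENPK, on chromosome 20 from 13952311 to 13989063, went from 7.66, 8.5 and 8.60 to 1.14, 0.352 and 1.09. CENPM, on chromosome 5 from 113443900 to 113456257, went from 16.8, 17.7 and 16.4 to 3.51, 3.05 and 2.79. In all 3 the butyrate cultures were far below the control cultures, and butyrate replicate 1 was the lowest for CENPH, replicate 2 for CENPK and replicate 3 for CENPM. These genes kept 9.89%, 10.4% and 18.4% of their control means, in that order. CENPI, on chromosome X from 54969324 to 55038297, was lowest of them in control, at 3.0, 3.41 and 3.48, and kept the most, with 1.33, 1.33 and 1.68 after butyrate and 43.9% left. All 4 were called, CENPI with a log2 fold change of -1.14 (SE 0.18; limma, Benjamini-Hochberg adjusted p = 0.000562), and CENPH and CENPM were DEGs.

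CENPO, CENPP, CENPQ and CENPU are among the subunits of another complex of this network, which in other species serves as a docking site for a mitotic kinase. All 4 fell, with 16.0%, 18.4%, 17.0% and 8.63% left in that order. CENPO, on chromosome 11 from 74465013 to 74480397, fell from 8.92 ± 1.08 (SD, n = 3) to 1.42 ± 0.489 (SD, n = 3), and CENPQ, on chromosome 23 from 21980291 to 21997928, from 7.18 ± 0.612 (SD, n = 3) to 1.22 ± 0.196 (SD, n = 3). CENPU, on chromosome 27 from 14163979 to 14209920, went from 5.31, 5.33 and 4.95 to 0.375, 0.219 and 0.753. CENPP, on chromosome 8 from 85383113 to 85619600, went from 8.72, 10.4 and 11.4 to 1.10, 2.81 and 1.71. CENPU was lowest and CENPP highest in butyrate replicate 2. The CENPP locus spans 236 kb and holds 6 other gene rows, among them ASPN, ECM2, OGN and OMD, so its value is uncertain where reads could belong to one of them. CENPO likewise overlaps ADCY3 and PTRHD1, and CENPU overlaps PRIMPOL. CENPQ was the only DEG of these 4 genes.

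CENPT and CENPW are histone-fold proteins that pair with each other and form a second route from chromatin to the NDC80 complex. CENPT, on chromosome 18 from 35463574 to 35467533, had an FPKM of 7.02, 6.79 and 8.83 across control replicates 1 to 3, against 0.742, 0.201 and 0.448 across butyrate replicates 1 to 3, and 6.15% was left. The longer CENPW row, on chromosome 9 from 25263752 to 25266364, went from 11.4, 10.5 and 12.1 to 0.618, 0.679 and 0.258, and 4.58% was left. Both were DEGs, with log2 fold changes of -3.87 and -4.28. The shorter CENPW row, from 25279310 to 25279586 on the same chromosome, spans less than 1 kb. It read 90.5, 55.1 and 78.0 in control and 1.42, 0 and 6.03 after butyrate, a log2 fold change of -6.23 (SE 1.22). This row moved in the same direction, but the tables do not say whether it is part of the same gene, a separate gene model or a pseudogene, so its value is uncertain. With CENPW counted once at its longer row, 35 of 37 genes fell and the median log2 fold change of the members was -3.15.

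The outer kinetochore is built from the KNL1, MIS12 and NDC80 complexes, and its 10 genes all fell. Of these, 8 were DEGs and the median log2 fold change was -3.02. CASC5, also called KNL1, is the scaffold on which checkpoint proteins gather. It lies on chromosome 10 from 36292541 to 36357054 and had an FPKM of 1.77, 1.76 and 1.96 across control replicates 1 to 3, against 0.119, 0.143 and 0.0944 across butyrate replicates 1 to 3. ZWINT, which binds KNL1, lies on chromosome 26 from 2850433 to 2855293 and stood at 6.50, 6.72 and 7.90 across control replicates 1 to 3, against 0.284, 0.167 and 0.451 across butyrate replicates 1 to 3. Both sets of values were far apart between groups, with 6.48% left for CASC5 and 4.27% for ZWINT.

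The NDC80 complex is the part that grips the microtubule. NDC80 and NUF2 form the end that binds the microtubule, and SPC24 and SPC25 form the end that binds the rest of the kinetochore. NDC80, on chromosome 24 from 37280124 to 37313654, had an FPKM of 8.20, 9.24 and 9.49 across control replicates 1 to 3, against 0.459, 0.169 and 0.293 across butyrate replicates 1 to 3. NUF2, on chromosome 3 from 6033714 to 6072026, had an FPKM of 24.9, 22.4 and 23.9 across control replicates 1 to 3, against 1.49, 1.85 and 2.05 across butyrate replicates 1 to 3. NDC80 kept 3.42% of its control mean and NUF2 kept 7.56%, with log2 fold changes of -4.54 and -3.66. SPC25, on chromosome 2 from 27296814 to 27309228, stood at 17.1, 15.3 and 17.4 across control replicates 1 to 3, against 0.918, 1.09 and 0.929 across butyrate replicates 1 to 3, and kept 5.91%. SPC24, on chromosome 7 from 16811444 to 16817517, was the highest of the 37 genes in control, at 157, 152 and 167. It stood at 22.3, 27.3 and 29.1 after butyrate, above the control means of NDC80 and SPC25, although 16.5% of its own control mean remained. All 4 were DEGs, and the log2 fold change of SPC24 was -2.60 (SE 0.10; limma, Benjamini-Hochberg adjusted p = 1.69e-07).

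The MIS12 complex joins CENP-C to the NDC80 complex and consists of MIS12, DSN1, NSL1 and PMF1. The control means of its subunits lay between 6.47 and 11.8, and the means after butyrate between 1.31 and 7.03. DSN1, on chromosome 13 from 66602323 to 66618330, had an FPKM of 9.35, 9.96 and 12.0 across control replicates 1 to 3, against 1.36, 1.45 and 1.12 across butyrate replicates 1 to 3. MIS12, on chromosome 19 from 26678009 to 26682795, had an FPKM of 9.67, 10.1 and 11.5 across control replicates 1 to 3, against 7.71, 7.17 and 6.20 across butyrate replicates 1 to 3. The 2 genes were at like levels in each control culture, yet DSN1 kept 12.6% and MIS12 67.5% of its control mean. The log2 fold change of MIS12 was -0.56 (SE 0.12; limma, Benjamini-Hochberg adjusted p = 0.00329), against -2.90 (SE 0.16) for DSN1. PMF1, on chromosome 3 from 14605969 to 14627746, went from 11.6, 12.7 and 11.1 to 2.09, 1.74 and 2.27, and NSL1, on chromosome 16 from 72664764 to 72701054, from 5.42, 6.18 and 7.81 to 2.81, 1.77 and 1.97. PMF1 kept 17.2% and NSL1 33.8%. DSN1 and PMF1 were DEGs, whereas MIS12 and NSL1 did not reach the fold threshold. The locus of DSN1 overlaps that of RBL1.

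The SKA complex stabilizes the grip of NDC80 on a moving microtubule end. SKA1, on chromosome 24 from 50429789 to 50460965, and SKA3, on chromosome 12 from 35841563 to 35854986, were DEGs. SKA1 went from 13.9, 12.4 and 14.0 to 0.699, 0.483 and 1.12, and SKA3 from 18.3, 17.5 and 17.2 to 0.758, 0.294 and 0.631, leaving 5.72% and 3.18%. SKA2, on chromosome 19 from 10322000 to 10354321, was the most abundant of them in control, at 30.2, 28.3 and 30.8, and stood at 10.1, 12.6 and 12.2 after butyrate. Its fall was called, with a log2 fold change of -1.35 (SE 0.10; limma, Benjamini-Hochberg adjusted p = 6e-06), but 39.1% was left.

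The fibrous corona is the outermost layer, which captures microtubules early in mitosis. CENPE is its kinesin motor and CENPF a large coiled-coil protein. CENPE, on chromosome 6 from 22959282 to 23042952, had an FPKM of 6.09, 4.97 and 4.54 across control replicates 1 to 3, against 0.306, 0.222 and 0.328 across butyrate replicates 1 to 3. CENPF, on chromosome 16 from 70439074 to 70501760, had an FPKM of 5.30, 5.14 and 4.97 across control replicates 1 to 3, against 0.264, 0.281 and 0.236 across butyrate replicates 1 to 3. Both were DEGs and kept 5.49% and 5.06% of their control means. KNTC1, the ROD protein, and ZWILCH form with ZW10 a complex that recruits dynein and checkpoint proteins to the corona. KNTC1, on chromosome 17 from 55100595 to 55171232, was the lowest of the 37 genes, at 1.34, 1.35 and 0.849 in control and 0.110, 0.0669 and 0.129 after butyrate. ZWILCH, on chromosome 10 from 13323790 to 13366229, had an FPKM of 21.2, 20.1 and 21.9 across control replicates 1 to 3, against 12.0, 13.1 and 14.1 across butyrate replicates 1 to 3, and its locus overlaps that of LCTL. Both were called, but KNTC1 kept 8.63% and ZWILCH 61.9%. The log2 fold change was -2.65 (SE 0.33) for KNTC1 and -0.69 (SE 0.08) for ZWILCH.

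CENPJ and CENPV were less changed than most of the genes above. CENPJ builds centrioles, the cores of the spindle poles. It lies on chromosome 12 from 36739682 to 36779214 and fell from 2.02, 2.21 and 1.99 to 0.50, 0.823 and 0.468, which left 28.8% (log2 fold change -1.67, SE 0.25; limma, Benjamini-Hochberg adjusted p = 0.000519). CENPV, a microtubule-associated protein on chromosome 19 from 33877995 to 33886580, had an FPKM of 33.6, 32.1 and 34.4 across control replicates 1 to 3, against 29.4, 32.1 and 31.9 across butyrate replicates 1 to 3. The highest butyrate value lay just below the lowest control value, and CENPV was the single row that was not called, its log2 fold change being -0.10, with a 95% interval from -0.25 to 0.05 (limma, Benjamini-Hochberg adjusted p = 0.211). With FPKM rescaled to TPM, in which every culture has the same total, its log2 fold change was 0.023, and with the medians of the cultures set equal, it was -0.20 and passed (adjusted p = 0.02).

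**Figure D2:**
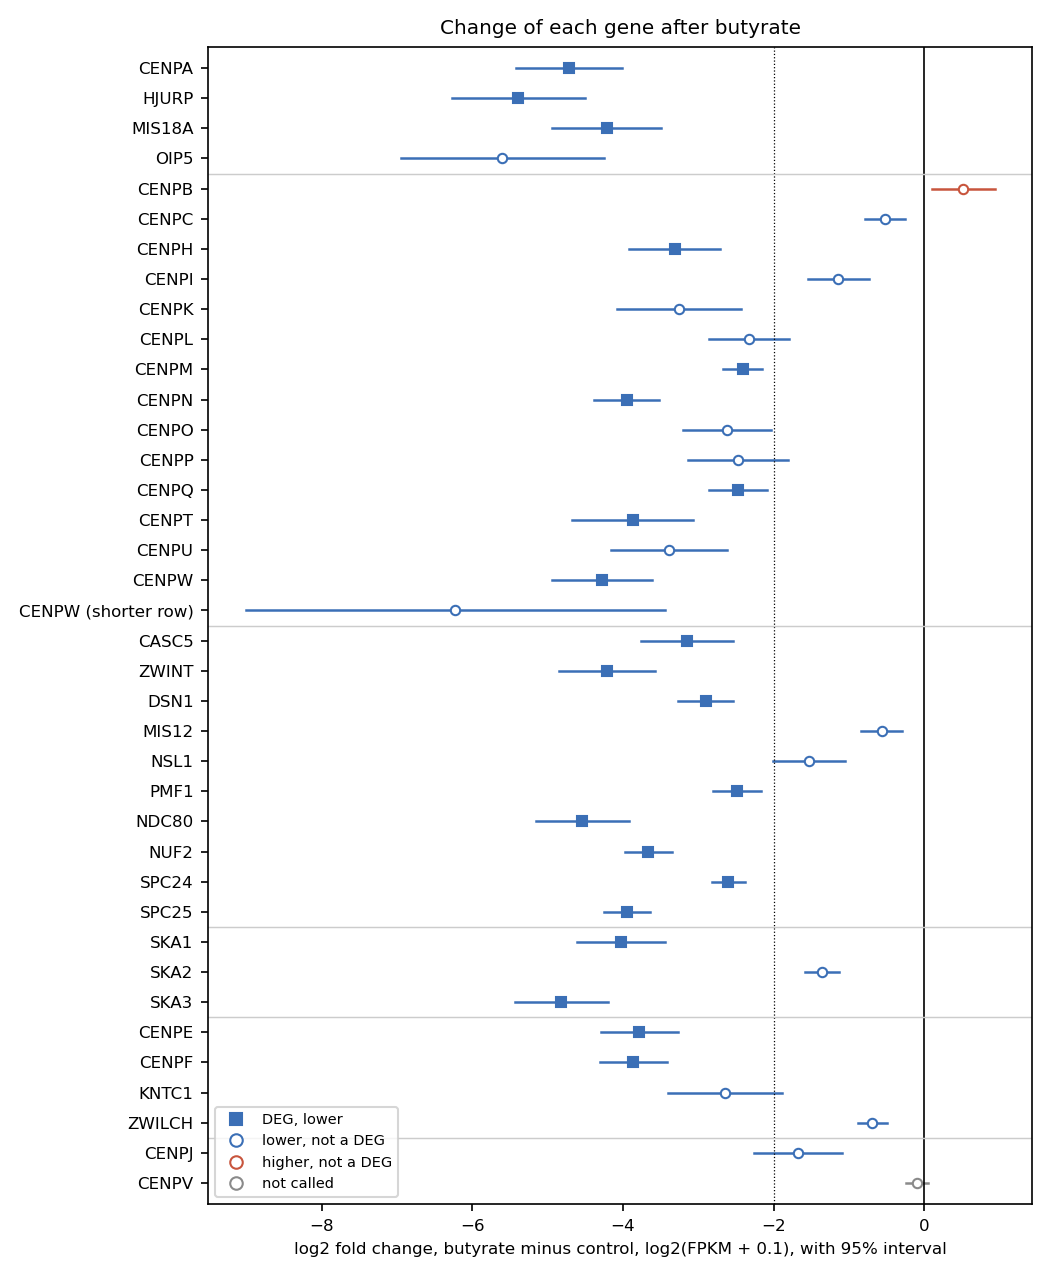
Log2 fold change of each row, butyrate minus control, on log2(FPKM + 0.1), with its 95% interval from limma; squares are DEGs, open circles are not, blue rows fell, the red row rose and the grey row was not called. The 21 squares lie beyond the dotted line at -2, while CENPC, MIS12, ZWILCH and CENPV lie close to the solid line at 0 and CENPB lies to its right.

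Because partners in a complex fell by different amounts, the ratio of their FPKM within a culture shifted. The pairs were picked after the values were seen, so the ratios are given as a description with no test. CENPC relative to CENPA was 0.469, 0.478 and 0.439 across control replicates 1 to 3, against 18.0, 11.7 and 5.60 across butyrate replicates 1 to 3. MIS12 relative to DSN1 was 1.03, 1.02 and 0.953 in control and 5.66, 4.95 and 5.51 after butyrate. MIS12 and DSN1 thus had nearly equal FPKM in each control culture and unequal FPKM in each butyrate culture. SKA2 relative to SKA1 was 2.17, 2.28 and 2.20 in control and 14.4, 26.1 and 10.9 after butyrate. ZWILCH relative to KNTC1 was 15.8, 14.8 and 25.8 in control and 109, 196 and 109 after butyrate. SPC24 relative to SPC25 was 9.21, 9.89 and 9.62 in control and 24.3, 25.0 and 31.3 after butyrate. None of these 5 ratios overlapped between groups. PMF1 and DSN1 kept closer to each other. Their ratio, 1.24, 1.27 and 0.926 in control and 1.53, 1.2 and 2.02 after butyrate, overlapped between groups. The ratio of CENPT to CENPW also overlapped, but it ran from 0.296 to 1.74 after butyrate, against 0.618 to 0.728 in control. With that spread, the overlap does not show that CENPT and CENPW kept close to each other. A ratio over a gene with an FPKM under 1 can be imprecise, as the spread of CENPC to CENPA among the butyrate cultures shows.

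**Figure D3:**
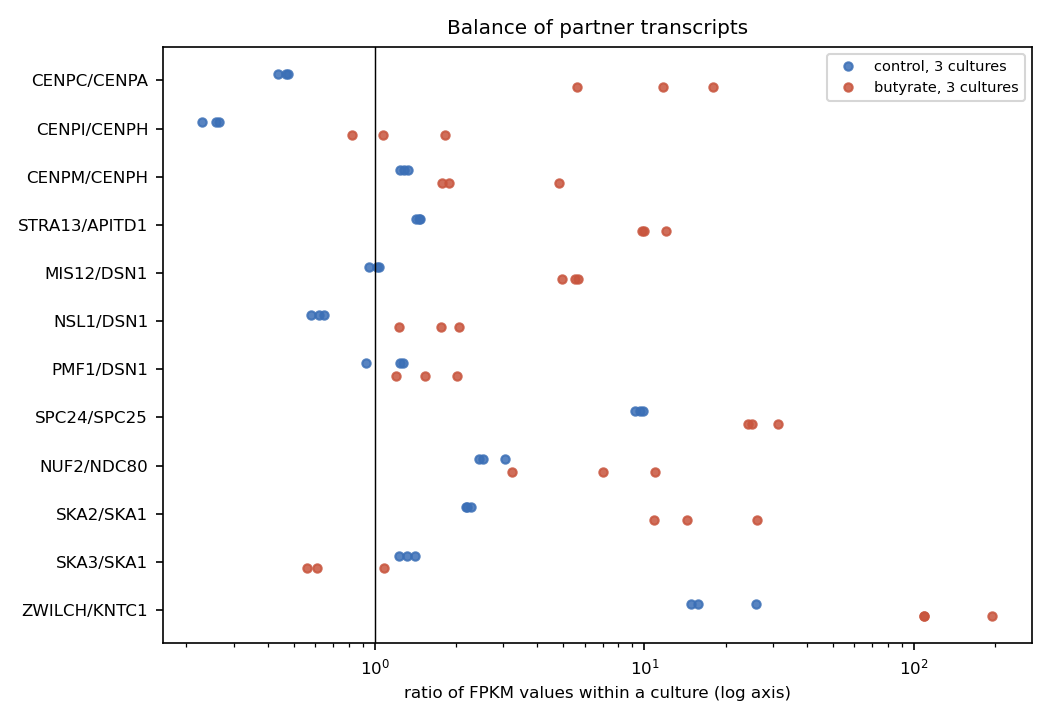
Ratio of the FPKM of 2 partner genes within a culture, on a log axis, with 1 point for each control culture (blue) and butyrate culture (red); the black line marks equal FPKM. MIS12/DSN1 lies on the line in control and between 4.95 and 5.66 after butyrate, and SKA3/SKA1 is the plotted pair that moves to the left.

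The order of the genes by level also changed. SPC24, CENPV, SKA2, NUF2 and ZWILCH were the 5 highest of the 37 genes in control, and CENPV, SPC24, ZWILCH, SKA2 and CENPB were the 5 highest after butyrate. CENPB moved from rank 29 to rank 5, CENPC from rank 28 to rank 7, and MIS12 from rank 19 to rank 6. HJURP went from rank 14 to rank 34 and OIP5 from rank 9 to rank 32. CASC5 and KNTC1 were the lowest in both groups, at ranks 36 and 37. Across the 37 genes, with CENPW counted once at its longer row, the log2 fold change had little relation to the control level (Pearson's r = -0.0773, Spearman's rho = -0.189) or to the span of the locus (Pearson's r = 0.109, Spearman's rho = 0.245). These are descriptions over genes that share the same 6 cultures.

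Genes that work beside these proteins were read from lists of other centromere, checkpoint and centriole genes. All 8 other centromere genes fell, beside 25.9% of all tested rows, and 4 were DEGs, beside 1.51%. Their median log2 fold change was -2.95. KIF2C, a kinesin that depolymerizes microtubules at the centromere, had a log2 fold change of -4.99, SPDL1, the adaptor that brings dynein to the kinetochore, -4.54, and KIF18A, a kinesin that dampens chromosome movement, -3.08. The histone-fold partners of CENPT and CENPW are in this list as APITD1 (CENPS) and STRA13 (CENPX), and were singled out after their values were seen. APITD1, on chromosome 16 from 44017896 to 44032547, had an FPKM of 63.6, 65.4 and 62.8 across control replicates 1 to 3, against 7.97, 8.43 and 7.21 across butyrate replicates 1 to 3. STRA13, on chromosome 19 from 51494262 to 51497888, had an FPKM of 93.4, 95.7 and 89.2 across control replicates 1 to 3, against 77.9, 84.3 and 86.5 across butyrate replicates 1 to 3. APITD1 kept 12.3% and STRA13 89.4% of the control mean, and their log2 fold changes were -3.01 (SE 0.08) and -0.16 (SE 0.06). The call of STRA13 (limma, Benjamini-Hochberg adjusted p = 0.035) was lost with FPKM rescaled to TPM (adjusted p = 0.555), by quantile normalization (adjusted p = 0.701), with the replicate number as a block (adjusted p = 0.0573), without the filter, without the trend, and without butyrate replicate 1 or 2 or control replicate 1 or 2. STRA13 relative to APITD1 was 1.47, 1.46 and 1.42 in control and 9.77, 10.01 and 12.0 after butyrate. ZW10, the third member of the complex with KNTC1 and ZWILCH, went from 17.9, 15.7 and 16.6 to 9.05, 8.88 and 9.85, a log2 fold change of -0.85, close to that of ZWILCH.

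Of the spindle checkpoint and chromosomal passenger genes, 18 of 18 rows for 17 genes fell (TTK has 2 rows), beside 25.9% of all tested rows. Of these rows 11 were DEGs, beside 1.51% of all tested rows, and the median log2 fold change was -3.50. TRIP13, CDC20 and PLK1 had the largest falls, with log2 fold changes of -6.35, -5.89 and -5.40. TRIP13 disassembles checkpoint complexes, CDC20 activates the anaphase-promoting complex, and PLK1 is a mitotic kinase. The genes of the centriole list changed less uniformly. Of 13, 8 fell, beside 25.9% of all tested rows, and 5 were not called. The median log2 fold change was -0.86. The number that fell was 6 to 8 in the alternative fits and the median -1.52 to -0.53. CETN2, a centriole protein named here for its unstable call, had a log2 fold change of -0.19 (limma, Benjamini-Hochberg adjusted p = 0.0172), with adjusted p = 0.312 after rescaling to TPM, 0.155 by quantile normalization and 0.0708 without the trend. PLK4, the kinase that starts centriole duplication, STIL and CEP135 had the largest falls, with log2 fold changes of -3.05, -2.45 and -2.26. PLK4 was the only DEG among the centriole genes.

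The proliferation markers were lower in every butyrate culture as well. All 7 were downregulated DEGs, beside 1.51% of all tested rows. Their summed FPKM was between 285 and 293 in control and between 15.1 and 18.9 after butyrate. CCNB1, a mitotic cyclin, went from 81.6, 83.0 and 83.0 to 2.17, 1.90 and 1.67, MCM2, a subunit of the replicative helicase, from 54.2, 62.0 and 61.1 to 5.18, 3.51 and 4.29, and PCNA, the replication clamp, from 52.5, 49.0 and 52.6 to 6.48, 6.41 and 6.73. The part of a lower number of dividing cells in the fall of the centromere and kinetochore genes was not tested. The level of expression alone was also related to the calls, since 8.21% of the tested rows with a control mean FPKM under 5 fell, 28.0% of those from 5 to 10, 34.8% of those from 10 to 20 and 52.0% of those of at least 20. Of the members, 4 of 4, 12 of 13, 15 of 15 and 5 of 6 rows fell in the same ranges.

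**Figure D4:**
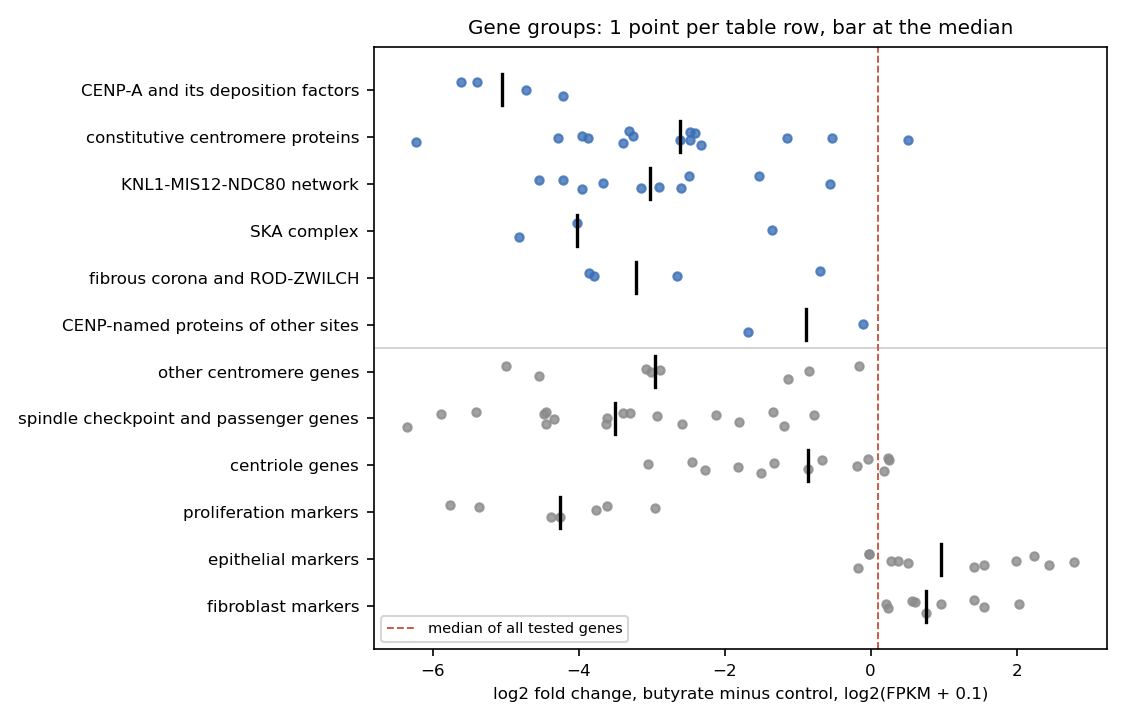
Log2 fold change on log2(FPKM + 0.1), butyrate minus control, with 1 point per row for the groups of centromere and kinetochore genes (blue) and for the other lists (grey), a black bar at each median and a red dashed line at the median of all tested rows, 0.10. The medians of the blue groups run from -5.05 for CENP-A and its deposition factors to -0.89 for CENPJ and CENPV. The group of CENPJ and CENPV is labelled CENP-named proteins of other sites in the plot. The medians are -3.50 for the spindle checkpoint genes and -0.86 for the centriole genes.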

How the data were processed

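RNA-seq of 3 control and 3 butyrate cultures was used, and groups and replicate numbers came from the sample labels. The authors trimmed reads with Trim Galore 0.4.1, aligned them with STAR, kept uniquely mapped reads and deposited per-gene FPKM from Cufflinks with a lower and an upper confidence bound. The build in the submitters' processing notes is UMD3.1. Strand use in the quantification is not given in the sources used here. The tables were joined by locus. Locus starts are printed with 1 added, since they count from 0, and sequences were named by the chromosome that most of their genes have in a gene table from RefSeq (assembly ARS-UCD2.0). Rows with a failed estimate in any culture, 2 in all, were left out. As FPKM are not read counts, tests made for counts were not used.

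Tests used limma 3.58.1 (R 4.3.3). The fit took log2(FPKM + 0.1) and let the variance follow a trend with the mean, over rows with a mean FPKM of at least 0.1, and p-values were adjusted over all 15813 rows. Lists are described by counts and medians without a test. All 37 genes are named. From the pathway lists the 3 largest falls and any called rise were to be named, of the proliferation markers the 3 highest in control, and of other marker lists the 2 highest. ZW10, APITD1, STRA13, CETN2, TTK, CDH1, DSP, PDGFRB, LUM, PDGFRA, DES, MYH11, PTPRC, LYZ and CDH5 were named outside this rule. The neighbouring genes of the closing section were picked after their values were seen. The members and lists were chosen with earlier results of these data known. Alternatives were other pseudocounts, filters and scalings, no trend, other thresholds, leaving out single cultures, and the replicate number as a block. The planned descriptions of promoter motifs and of protein features were not made, as no sequences were used here.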

Additional observations from a re-analysis of the deposited data

How the results depend on the processing

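The direction of all 38 rows except CENPV, and the calls of all except CENPB, CENPV and the shorter CENPW row, held under every alternative fit that tested them, with Benjamini-Hochberg adjustment. CASC5 and KNTC1 were not tested among rows with a mean FPKM of at least 1. Scaling moved the median log2 fold change of all tested rows by -0.10 with equal medians, -0.15 by quantile normalization and 0.12 with rescaling to TPM. The 36 rows that fell, or 35 genes with CENPW counted once, became 22 with Bonferroni correction. The 1 that rose, CENPB, became 0 with equal medians, without a filter, without the trend, by quantile normalization and with Bonferroni correction, and ranged from 0 to 1 with a culture left out. CENPV changed sign to 0.023 with rescaling to TPM. The shorter CENPW row kept its log2 fold change without a filter but was not called (limma, adjusted p = 0.0596). The 21 downregulated DEGs became 2 without a filter and 10 without the trend, and ranged from 11 to 18 with a culture left out, where fewer cultures are tested. The other causes were not tested. The median log2 fold change of -3.20 became -3.42 with a pseudocount of 0.01, -2.27 with a pseudocount of 1 and -3.60 by quantile normalization, and ranged from -3.27 to -3.01 with a culture left out. The ratio of group means, chosen after seeing the data, gave -3.44. With the replicate number as a block, 36 rows fell, 1 rose and 18 were DEGs. The deviations of same-numbered cultures from their group means correlated across rows at 0.0228, -0.00431 and 0.00177, and 2 of the 6 cultures correlated best with their own number. The labels do not say whether same-numbered cultures were handled together. With 3 cultures per group these values cannot decide it. The number of fragments behind an FPKM under 1 is not given and depends on transcript length. Ratios and fold changes of rows at that level are thus limited to an unknown degree, which differs between genes.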

Other observations

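The genes next to the members on the chromosomes were mixed in direction. The nearest tested row on either side of each of the 37 genes was taken, leaving out members and rows that overlap the gene's own locus. Distances ran from 0.048 kb, for a neighbour of NSL1, to 4742 kb, for a neighbour of CENPC. Of these 74 neighbours, 24 fell, or 32.4% beside 25.9% of all tested rows (limma, Benjamini-Hochberg). A further 19 rose, where 32.5% of all tested rows did, and 31 were not called. The median log2 fold change of the neighbours was -0.0037. Downregulated DEGs made up 4 of the 74, beside 1.51% of all tested rows. Among neighbours that fell, CCNB1, a mitotic cyclin gene 5.54 kb from CENPH, had a log2 fold change of -5.37 beside -3.32 for CENPH, and NUSAP1, a spindle protein gene 0.254 kb from OIP5, had -4.04 beside -5.61 for OIP5. PRR11, 0.311 kb from SKA2, had -3.74 where SKA2 had -1.35, and CDC25B, 11.3 kb from CENPB, had -2.63 where CENPB had 0.52. Among neighbours that were not called, MRPL57, 0.076 kb from SKA3, had a log2 fold change of 0.046 beside -4.82 for SKA3, and RSRC2, 0.093 kb from KNTC1, had 0.042 beside -2.65 for KNTC1. Among neighbours that rose, ATMIN, 1.83 kb from CENPN, had 1.13 beside -3.95 for CENPN, and SEPT3, 32.7 kb from CENPM, had 4.16 beside -2.41 for CENPM, from a control mean of 0.0149 FPKM. These pairs were chosen after their values were seen, and no difference between them was tested.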
